A study of Mus musculus with 6 samples.

Results

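Mesenchymal stem cells of mouse that had been transfected with an empty vector were set against the same Dicer wild-type line without transfection. The 2 groups were chosen by their labels, as 2 of the 6 samples of the series, and exonic and intronic reads were compared separately. The vector cells are Dicer f/f, immortalised, monoclonal and transfected with the vector alone. The untransfected Dicer WT cells are the same Dicer f/f line with no transfection. Dicer f/f cells transfected with Pbx3, Sox9 or Tead4, and untransfected Dicer -/- cells (KO), are given beside them as levels only. All cells grew in Alpha-MEM with 10% fetal bovine serum and were harvested below confluence, per the labels' protocols. The labels do not name the vector, the transfection reagent, any selection or the time between transfection and harvest. Each genotype is a single clone. Fibroblasts is the labels' other name for these mesenchymal stem cells. The series includes the vector cells as the control of the transfected factors, and their comparison with untransfected cells shows how far that control stands from the untransfected line.

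Transfection brings plasmid DNA through the cell membrane. In mammalian cells, DNA in the cytosol can be read by sensors that switch on interferon genes, and DNA damage or other stress can stabilise the transcription factor p53. p53 binds a response element made of paired 10-base half-sites and raises genes that halt the cell cycle, repair DNA or lead to cell death. Mesenchymal stem cells are stromal cells that lay down collagen-rich matrix and can form bone, cartilage and fat. Intronic reads come mostly from unspliced RNA, so they follow transcription more closely than exonic reads do.

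Each group held 2 libraries, whose whole reads were recovered from the deposited means. Values are normalised counts, that is reads divided by a factor for the depth of the library, on the scale of the authors' table of untransfected cells. The authors normalised the tables of vector and untransfected cells separately, so the levels set side by side here rest on the common scale computed from the reads. The vector libraries held 11011360 and 8580445 exonic reads, against 23217547 and 18517189 in untransfected WT. Intronic reads made up 29.1% of gene reads in vector and 31.4% in untransfected WT cells. The vector libraries are thus shallower throughout, and transfection, sequencing depth and any batch of library preparation cannot be told apart. Of 19 stromal markers fixed for the check of the cell type, 17 were above the minimum level, and the summed level of the 19 was 135390 to 139993 in vector and 108514 to 130948 in untransfected WT. Summed levels of 14 immune markers were 157 to 215 in vector and 170 to 198 in WT, with 9 of the 14 at 0 reads in vector and 8 in WT. Summed levels of 11 endothelial markers were 106 to 165 in vector and 165 to 196 in WT, and of 11 epithelial markers 18.6 to 99.1 in vector and 32.3 to 40.9 in WT. Summed levels of 12 skeletal muscle markers were 2278 to 2551 in vector and 1976 to 3111 in WT. Of these 12, 9 were at 0 reads in vector and 6 in WT, and 2 reached the minimum level. Summed levels of 13 neuronal and glial markers were 71.8 to 107 in vector and 102 to 108 in WT.

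After the group means were rescaled, exonic levels of 465 of 10619 genes stood 2-fold or more apart (4.38%). Of these, 70 were higher in vector cells (0.659% of all genes) and 395 lower (3.72%), so lower genes made up 84.9% of those past the fold. Intronic levels were 2-fold or more higher for 78 of 10138 genes (0.769%) and lower for 393 (3.88%). The imbalance was weaker by the mean log2 difference of the libraries on the common scale. By that measure 96 genes were at least 2-fold higher and 345 lower in exonic reads, and 101 and 316 in intronic reads. The rescaling of the group means set the median gene equal in both groups only among genes with both means of at least 200. These were 7390 exonic and 4895 intronic genes, fewer than the 10619 and 10138 measured. The median over all measured genes was not set equal by it, and the imbalance in the rescaled means is relative to this subset. The test across genes was limma on the 4 libraries, with Benjamini-Hochberg adjustment over every gene and a threshold of 0.05, and "rose" and "fell" are kept for genes that passed it. It called 0 of 10638 genes in exonic reads, where 1649 (15.5%) had an unadjusted p under 0.05, and 6 higher and 7 lower of 10188 in intronic reads (0.128%). The same contrast in a fit over all 12 libraries of the series, which lends it the spread of the other groups, called 146 higher (1.37%) and 119 lower (1.12%) in exonic reads. In intronic reads it called 178 higher (1.75%) and 217 lower (2.13%). The 4-library counts depended on single libraries. Without vector library 1 or 2, or WT library 1 or 2, the exonic count was 121, 3, 511 and 155 and the intronic count 0, 0, 237 and 104, in this order. Whether the 2 libraries of a group are separate cultures is not stated, so these p values measure only the spread between libraries, which may be technical. Values with ± are limma log2 differences, vector minus untransfected WT, with their standard error from the 4 libraries (2 per group).

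**Figure D1:**
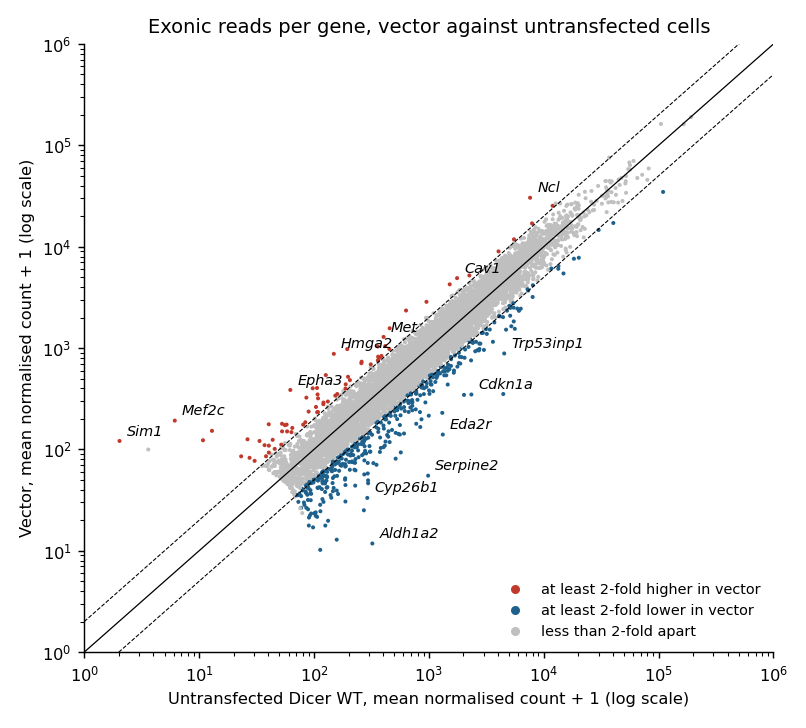
Mean exonic level of each gene in vector cells (vertical axis) and untransfected Dicer WT cells (horizontal axis), as normalised counts plus 1 on log scales. The solid line marks equal levels and the dashed lines a 2-fold difference. By the rescaled group means, 70 genes are coloured as higher and 395 as lower in vector. Positions use the common scale of the libraries, so colours and dashed lines can disagree for genes near 2-fold. Sim1 and Mef2c stand farthest above the line, and Aldh1a2 and Serpine2 farthest below it.

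Most genes of the p53 list, which holds p53 targets and p53 itself (Trp53), lay lower in vector cells. Of 25 listed genes, 24 reached the minimum mean of 50, and of these 21 had a difference below 0 in exonic reads. Their median was −0.83 on the log2 scale, against 0.01 over all genes tested. At least 2-fold lower were 11, where 3.72% of all genes were, and 0 were at least 2-fold higher. In 16 of the 24, both vector libraries lay below both untransfected libraries, as did 24.5% of all genes. The 12-library fit called 9 lower and 0 higher (1.12% of all genes were called lower). The 4-library fit called none of them in exonic reads, with the lowest adjusted p of any gene at 0.093 for Eda2r. Between the 2 libraries of one group the median of the list differed by 0.01 in vector and by 0.19 in untransfected WT. In bulk RNA, fewer cells that express a gene and less RNA per cell cannot be told apart.

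The promoters of the list were searched for p53 elements, as a description of genes that were listed because p53 is known to act on them. The p53 response element was searched on both strands as a pair of 10-base half-sites, with the C and G of each core fixed, a spacer of at most 1 base and up to 2 mismatches in all, over 250 bases before and 50 bases after the start of each gene. Of 19 list genes with a promoter in RefSeq, 3 held such an element (15.8%), as did 218 of 27025 genes with a promoter (0.807%). Since the list was drawn up as p53 targets, this share is no independent result, and most of the list held no such element. The 250 bases before the start of these 3 genes follow, from RefSeq on GRCm38.p6, 5′ to 3′ on the strand of the gene, with the matched element in capitals. A match is a run of letters and not evidence of binding.
Cdkn1a promoter, chr17:29090729-29090978, plus strand: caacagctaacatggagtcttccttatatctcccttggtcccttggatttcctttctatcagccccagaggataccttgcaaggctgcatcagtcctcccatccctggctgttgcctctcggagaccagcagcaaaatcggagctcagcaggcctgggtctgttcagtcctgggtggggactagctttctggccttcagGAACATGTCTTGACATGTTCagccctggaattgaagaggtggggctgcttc
Ccng1 promoter, chr11:40755287-40755536, minus strand: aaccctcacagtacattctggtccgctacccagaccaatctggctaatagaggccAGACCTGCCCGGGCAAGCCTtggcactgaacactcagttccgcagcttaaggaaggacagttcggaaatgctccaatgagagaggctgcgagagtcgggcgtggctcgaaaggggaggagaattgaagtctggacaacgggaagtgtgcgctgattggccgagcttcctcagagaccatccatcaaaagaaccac
Bax promoter, chr7:45466899-45467148, minus strand: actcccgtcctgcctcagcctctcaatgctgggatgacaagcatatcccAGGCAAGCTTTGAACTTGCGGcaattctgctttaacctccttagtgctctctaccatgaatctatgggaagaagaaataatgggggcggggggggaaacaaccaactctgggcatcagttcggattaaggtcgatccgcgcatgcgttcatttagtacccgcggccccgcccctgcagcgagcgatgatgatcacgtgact
The element lay 51 to 32 bases before the listed start of Cdkn1a with 1 mismatch, 195 to 176 bases before that of Ccng1 with 1 mismatch, and 201 to 181 bases before that of Bax with 2 mismatches.

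Cdkn1a encodes p21, the inhibitor of cyclin-dependent kinases that holds cells in G1. Its exonic level was 311 and 383 in vector cells, against 2761 and 1925 in untransfected WT cells. The vector libraries lay far below the WT libraries, a difference of −2.74 ± 0.24 (limma adjusted p = 0.0991 over 4 libraries and 0.00301 over 12). Its intronic level fell to 58.8 and 40.8 in vector, against 382 and 361 in WT (−2.90 ± 0.27, limma adjusted p = 0.0484). Eda2r, a receptor of the TNF family, gave 140.0 and 138 in vector and 1578 and 1064 in WT (−3.21 ± 0.25, 12-library adjusted p = 0.00329). In intronic reads Eda2r fell to 67.2 and 92.5 in vector, against 549 and 419 in WT (−2.59 ± 0.26, limma adjusted p = 0.0484). Cdkn1a and Eda2r were thus low in unspliced as well as in spliced RNA.

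Further members also lay lower. Trp53inp1, which promotes cell death and autophagy, gave 1067 and 699 in vector and 3706 and 5351 in WT (−2.36 ± 0.28). Dcxr, a dicarbonyl and xylulose reductase, gave 107 and 53.2 in vector and 458 and 568 in WT (−2.74 ± 0.38). Phlda3, an inhibitor of the kinase AKT, gave 976 and 880.0 in vector and 2685 and 2378 in WT (−1.45 ± 0.17). For these 3 genes both vector libraries lay below both WT libraries. Ccng1, cyclin G1, was the most abundant of the lower members, with 7317 and 7896 in vector and 21121 and 15495 in WT (−1.25 ± 0.21). Zmat3, an RNA-binding zinc finger protein, gave 622 and 657 in vector and 1505 and 1381 in WT (−1.17 ± 0.17). Bax, which opens the mitochondrial membrane in apoptosis, gave 1052 and 1008 in vector and 1659.7 and 1587 in WT (−0.66 ± 0.16). Each of these 6 genes, and Ei24, passed the 12-library fit, with adjusted p between 0.00329 for Zmat3 and 0.0451 for Ei24.

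Other members did not pass either fit in exonic reads. Btg2, an antiproliferative gene, gave 748 and 444 in vector and 1652 and 1267 in WT (−1.33 ± 0.29), and Fas, the death receptor, 159 and 159.5 in vector and 484 and 325 in WT (−1.31 ± 0.27). Mdm2, the ubiquitin ligase that degrades p53, gave 1857 and 2252 in vector and 3239 and 2896 in WT (−0.58 ± 0.18). In intronic reads Mdm2 stood at 1548 and 1600.1 in vector and 3094 and 3507 in WT, and there the 12-library fit called it lower (adjusted p = 0.00245). The DNA damage gene Gadd45a stood at 231 and 159.5 in vector and 208 and 199 in WT, with overlapping libraries.

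The 3 members above 0 were Plk2, Trp53 and Rrm2b. Trp53 itself gave 1964 and 2706 in vector and 1782 and 1381 in WT (0.55 ± 0.23), so both vector libraries lay above both WT libraries while most of its targets lay below. Rrm2b, the p53-inducible subunit of ribonucleotide reductase, gave 402 and 574 in vector and 312 and 263 in WT in exonic reads (0.74 ± 0.25). Its intronic level was 666 and 493 in vector and 143 and 167 in WT (1.88 ± 0.23, 12-library adjusted p = 0.00245), the only member that fit called higher. In intronic reads as a whole, 20 members were measured, with a median of −0.97 against 0.01 over all genes. Of these 20, 10 were at least 2-fold lower (3.88% of all genes). On 4 libraries limma called 2 lower and 0 higher (0.0687% and 0.0589% of all genes). The 12-library fit called 10 lower and 1 higher (2.13% and 1.75% of all genes).

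**Figure D2:**
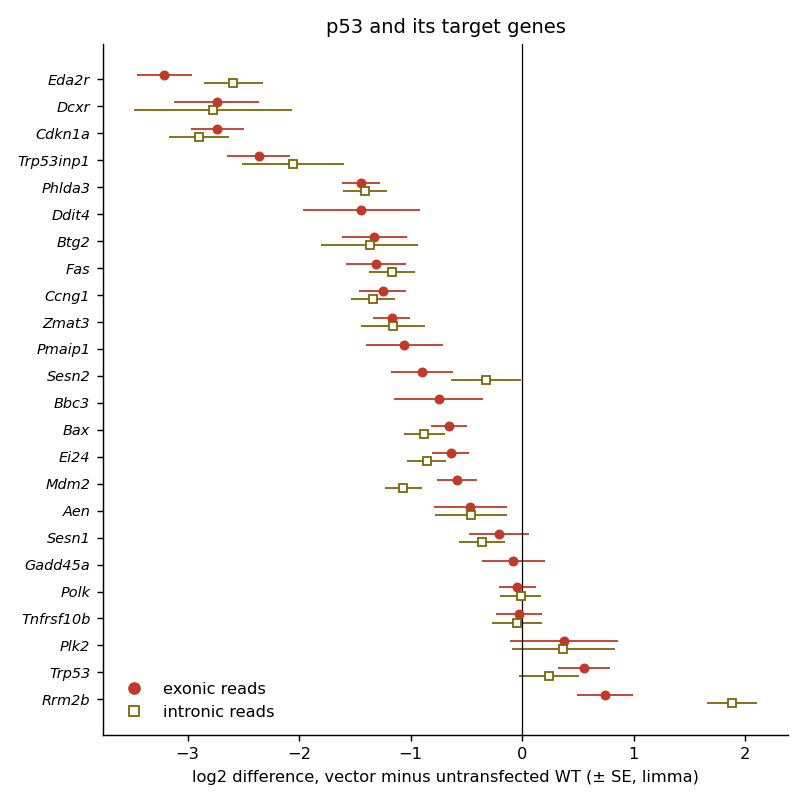
log2 difference, vector minus untransfected WT, of each measured gene of the p53 list in exonic reads (filled circles) and intronic reads (open squares), with limma standard errors from 2 libraries per group. 21 of 24 exonic values lie below 0, and Eda2r, Dcxr and Cdkn1a lie lowest.

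The cells transfected with a factor were read for the same genes. These cells share the transfection with the vector cells, and the Dicer KO cells share its absence with the untransfected WT cells. Cdkn1a was at 249.7 to 531 in the 6 libraries of Pbx3, Sox9 and Tead4 cells, close to the vector cells, and at 1199.7 and 956 in KO cells. Eda2r was at 109 to 186 in the factor cells and at 408 and 252 in KO. Phlda3 was at 717 to 1273 in the factor cells and at 1879.7 and 1579 in KO. For 6 of the 24 members (Bbc3, Btg2, Cdkn1a, Eda2r, Fas and Phlda3) all 8 transfected libraries lay below all 4 untransfected libraries, where 5.05% of all genes did. For 1 member, Trp53, all 8 lay above (5.49% of all genes). This division includes the vector and WT libraries themselves, so a list that is low in vector meets it more readily. Of the 395 genes at least 2-fold lower in exonic reads, 88 lay lower in all 8. The same limit holds for the other lists below. The other 17 members showed no such division. Ccng1, for instance, was at 6036 to 7105 in the factor cells and at 7240.4 and 5721 in KO, so both KO libraries lay near the transfected ones.

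Genes of DNA sensing and of the interferon response, the pathways that transfected DNA can switch on, were not called by either fit. In exonic reads the 4-library fit called 0 of all genes. The 12-library fit called 1.37% of all genes higher and 1.12% lower. In lists this small, 0 calls therefore do not show that the genes were unchanged. Of 20 measured interferon genes out of 36 listed, 15 were above 0 and 5 below in exonic reads, with a median of 0.24, and 0 passed limma on 4 or on 12 libraries. Both vector libraries lay above both WT libraries for 9 of them, beside 25.6% of all genes, and below for 0. Ifit1, an antiviral RNA-binding protein, was the only member at least 2-fold higher (0.659% of all genes were). It gave 161 and 183 in vector and 52.2 and 57.6 in WT (1.63 ± 0.33, 12-library adjusted p = 0.0631). Its levels were 62.5 to 364 in the factor cells and 297 and 565 in KO cells. Ifit3, of the same family, gave 89.4 and 90.4 in vector and 54.1 and 43.2 in WT (0.88 ± 0.40). Of 11 measured nucleic acid sensors and their partners, 7 were above 0 and 4 below, with a median of 0.11 and 0 called by either fit. Ifi204, a DNA sensor of the HIN-200 family, gave 2224 and 2488 in vector and 1913 and 1803 in WT (0.34 ± 0.16), and Irf3, the transcription factor that carries the signal to interferon genes, 725 and 609 in vector and 793 and 869 in WT (−0.32 ± 0.18). The 16 inflammatory genes had a median of −0.15.

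Genes of antigen presentation lay mostly lower. Of 15 measured, 13 were below 0, with a median of −0.68, and 0 passed either fit (0 and 1.12% of all genes were called lower). 1 was at least 2-fold lower (3.72% of all genes), and for 7 both vector libraries lay below both WT libraries (24.5% of all genes). For 3 all 8 transfected libraries lay below all 4 untransfected ones (5.05% of all genes), and for 0 above (5.49%). Tap1, the peptide transporter of the class I pathway, gave 1153 and 1669.5 in vector and 3124 and 2786 in WT (−1.09 ± 0.22). Psmb9, an immunoproteasome subunit, gave 348 and 253 in vector and 535 and 602 in WT (−0.93 ± 0.23). H2-Q4, a class I heavy chain, gave 1079 and 2209 in vector and 3665 and 2349.6 in WT (−0.93 ± 0.38), and reads that it shares with other H2 genes cannot be told apart here.

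Matrix genes, the main secreted product of stromal cells, were also mostly lower. Of 28 measured fibrillar collagens and matrix proteins, 25 were below 0, with a median of −0.82. At least 2-fold lower were 9 and higher 1 (3.72% and 0.659% of all genes). Both vector libraries lay below both WT libraries for 19 of them (24.5% of all genes), while the 12-library fit called 1 lower and 0 higher (1.12% of all genes were called lower). That gene was Col5a1, a collagen V chain that sets the width of collagen fibrils, with 6227 and 5886 in vector and 16378 and 10385 in WT (−1.11 ± 0.25, 12-library adjusted p = 0.0341). Tnc, the adhesion-modulating protein tenascin C, gave 43119 and 26295 in vector and 80889 and 137878 in WT (−1.65 ± 0.37), and was at 8463 to 40131 in the factor cells. Loxl2, a collagen cross-linking enzyme, gave 1625 and 1470.1 in vector and 8611 and 2589 in WT (−1.61 ± 0.53), with the WT libraries far apart. Col11a1, a collagen of cartilage, went the other way with 515 and 284 in vector and 97.7 and 95.2 in WT (1.98 ± 0.34). Col11a1 was at 26001 and 15691 in Sox9 cells. All 8 transfected libraries lay below all 4 untransfected ones for 0 of the 28 (5.05% of all genes) and above for 1, Col11a1 (5.49% of all genes).

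Basement membrane genes also lay mostly below. Of 15 measured, 12 were below 0, with a median of −0.63. At least 2-fold lower were 6 and higher 1 (3.72% and 0.659% of all genes), and the 12-library fit called 3 lower and 0 higher (1.12% of all genes were called lower). Both vector libraries lay below both WT libraries for 7 of the 15 (24.5% of all genes). All 8 transfected libraries lay below all 4 untransfected ones for 2 (5.05% of all genes) and above for 0 (5.49%). Hspg2, the proteoglycan perlecan, gave 2018 and 2018 in vector and 4415 and 4423 in WT (−1.13 ± 0.15, 12-library adjusted p = 0.00599). Each group's libraries were close to each other, and the factor cells lay between, at 2154 to 3155. Nid1, the linker protein nidogen, gave 1682 and 1353 in vector and 3635 and 5758 in WT (−1.60 ± 0.26), and its intronic level was 208 and 177 in vector and 579 and 721 in WT (−1.75 ± 0.21, 12-library adjusted p = 0.00527). Col4a5, a collagen IV chain, gave 572 and 455 in vector and 1014 and 1153 in WT (−1.08 ± 0.20). Lama4, a laminin chain, was higher, with 410.2 and 553 in vector and 244 and 165 in WT (1.24 ± 0.29). Of 22 proteases and inhibitors of the matrix, 14 were below 0 and 8 above. At least 2-fold lower were 4 and higher 1 (3.72% and 0.659% of all genes). Both vector libraries lay below both WT libraries for 7 of the 22 (24.5% of all genes). The 12-library fit called 2 lower (1.12% of all genes), Serpine2 (described below) and Mmp23. Mmp23, a membrane metalloproteinase, gave 222 and 109 in vector and 785 and 896 in WT (−2.42 ± 0.36).

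**Figure D3:**
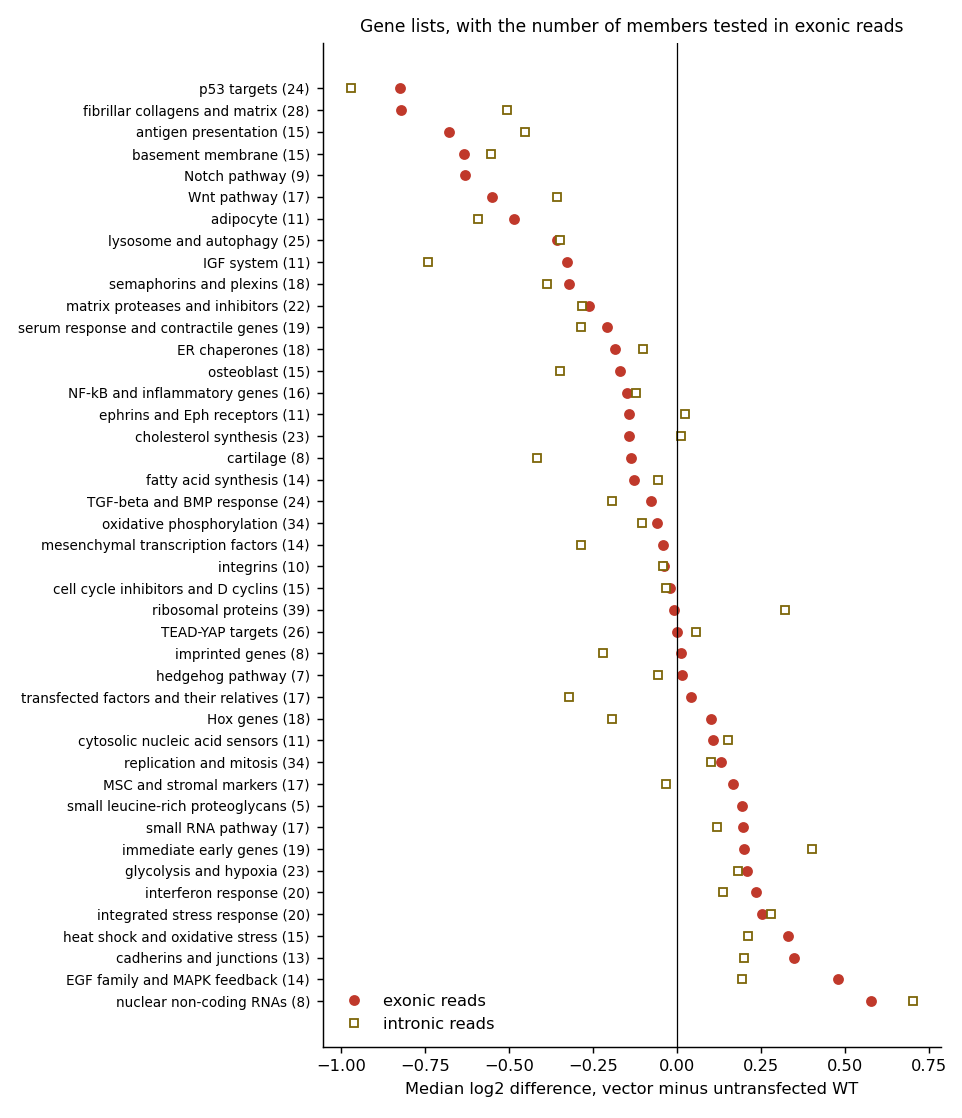
Median log2 difference, vector minus untransfected WT, over the measured members of each gene list with at least 5 of them, in exonic reads (filled circles) and intronic reads (open squares). The p53 targets and the matrix proteins lie lowest in exonic reads, at −0.83 and −0.82, and the nuclear non-coding RNAs highest, at 0.58.

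The genes farthest above in exonic reads were of varied kinds. Mef2c, a transcription factor of muscle, heart and neural crest, gave 218 and 165 in vector, against 4.74 and 5.53 in untransfected WT (4.96 ± 0.57, limma adjusted p = 0.105 over 4 libraries and 0.00301 over 12). It was at 82.1 to 1847 in the factor cells, highest in Sox9 cells, and at 0 and 1.05 in KO cells, so all 8 transfected libraries lay above all 4 others. In intronic reads Mef2c rose to 347 and 267 in vector, against 6.79 and 12.5 in WT (4.90 ± 0.41, limma adjusted p = 0.047). Sim1, a transcription factor of the hypothalamus and kidney, gave 163 and 77.1 in vector and 0.949 and 1.11 in WT. These are 113 reads in vector and 2 in WT, a ratio of 124 with a 95% counting interval of 33.6 to 1038, which covers counting error only. Sim1 was at 0 to 11.4 in the factor cells and 40.1 and 82.1 in KO, so transfected and untransfected libraries overlapped. The cause was not tested.

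Some of the higher genes encode receptors or adhesion molecules, though the lists of such genes differed in direction. Of 11 ephrins and Eph receptors 5 were above 0 and 6 below, with 1 at least 2-fold higher and 2 lower. Of 10 integrins 5 were above and 5 below, also with 1 at least 2-fold higher and 2 lower. Of 13 cadherins and junction genes 9 were above and 4 below (median 0.35), with 1 at least 2-fold higher and 0 lower. Of 18 semaphorins and plexins 3 were above and 15 below (median −0.32), with 0 at least 2-fold higher and 3 lower. Among all genes 0.659% were at least 2-fold higher and 3.72% lower. Epha3, a receptor for ephrins, gave 393 and 378 in vector and 82.6 and 39.8 in WT (2.72 ± 0.40, 12-library adjusted p = 0.0103), with 256 to 648 in the factor cells and 0.931 and 2.11 in KO. Met, the receptor of hepatocyte growth factor, gave 1411 and 1162 in vector and 411 and 394 in WT (1.67 ± 0.19, 12-library adjusted p = 0.00301). The factor cells had 1285 to 2662 and the KO cells 2645 and 2565 for Met, so here the untransfected WT libraries were the low ones. Itga6, a laminin-binding integrin, gave 167 and 82.4 in vector and 14.2 and 36.5 in WT (2.31 ± 0.65). Cav1, which shapes caveolae, gave 5348 and 4439.6 in vector and 1739 and 1779.6 in WT (1.47 ± 0.17, 12-library adjusted p = 0.00629), and 882 and 948 in KO. Pcdh18, a protocadherin, gave 1705 and 1428 in vector and 482 and 427 in WT (1.78 ± 0.19). Eps8, an actin regulator downstream of growth factor receptors, gave 577 and 502 in vector and 139 and 113 in WT (2.10 ± 0.24). All 8 transfected libraries lay above all 4 untransfected ones for Epha3, Itga6, Cav1, Pcdh18 and Eps8, and not for Met. Among all genes 5.49% divided this way, and of the 70 genes at least 2-fold higher, 27 did. The 6 genes were named for a large difference or a low p between vector and WT, so their division is no trait of receptors or adhesion genes.

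Among intracellular proteins, Hmga2, a chromatin protein and a known target of let-7 microRNAs, gave 826 and 925 in vector and 206 and 89.6 in WT (2.68 ± 0.40), with 441 to 4857 in the factor cells and 1300.3 and 1895 in KO. Anp32b, a histone chaperone, gave 2123 and 2565 in vector and 736 and 527 in WT (1.90 ± 0.22, 12-library adjusted p = 0.00329). Ncl, the nucleolar protein nucleolin, gave 19215 and 41597 in vector and 10097 and 5109.8 in WT (1.98 ± 0.46), where the lower vector library was nearer to the higher WT library than to the other vector library. Rps16, a ribosomal protein, gave 558 and 247 in vector and 105 and 105 in WT (1.81 ± 0.41). Ribosomal protein genes have many processed copies, so reads of Rps16 and its copies may have been split, and over 39 measured ribosomal protein genes the median was −0.01. Coch, Pi15 and Lphn2 completed the 12 largest; Coch and Pi15 are secreted proteins and Lphn2 an adhesion receptor. Coch gave 79.7 and 223 in vector and 9.49 and 14.4 in WT, Pi15 175 and 69.1 in vector and 1.90 and 17.7 in WT, and Lphn2 214 and 138 in vector and 25.6 and 53.1 in WT.

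The genes farthest below included enzymes of retinoic acid. Aldh1a2, which makes retinoic acid, gave 13.6 and 7.98 in vector, against 172 and 470.4 in untransfected WT (−4.64 ± 0.63, 12-library adjusted p = 0.0236). It was at 0 to 11.4 in the factor cells and 2589.5 and 4406 in KO cells, a division of transfected from untransfected libraries with no overlap. Cyp26b1, which breaks retinoic acid down, gave 27.2 and 37.2 in vector and 299.9 and 280.0 in WT (−3.15 ± 0.35, 12-library adjusted p = 0.072). In Sox9 cells Cyp26b1 stood at 374 and 246 and in KO at 14.9 and 32.6, so its levels in transfected and untransfected libraries overlapped.

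The other low genes were of mixed kinds. Serpine2, an inhibitor of thrombin and plasminogen activators, gave 60.3 and 47.9 in vector and 1240.3 and 728 in WT (−4.12 ± 0.33, limma adjusted p = 0.093 over 4 libraries and 0.00329 over 12), with 41.9 and 75.8 in KO. Hp, the haemoglobin carrier haptoglobin, gave 572 and 130.3 in vector and 2609 and 6272 in WT (−3.88 ± 0.74), and all 8 transfected libraries, at 33.7 to 572, lay below the 4 untransfected ones. Inhbb, a subunit of activin B, gave 13.6 and 34.6 in vector and 504 and 37.6 in WT, so its low mean difference rests on 1 WT library. Parm1, a mucin-like membrane protein, gave 7.78 and 16.0 in vector and 198 and 115 in WT (−3.64 ± 0.60), and Arap2, a regulator of small GTPases, 7.78 and 10.6 in vector and 140.4 and 84.1 in WT (−3.44 ± 0.61). Both had all 8 transfected libraries below all 4 untransfected ones. Rab15, a GTPase of endosomes, gave 13.6 and 23.9 in vector and 140.4 and 123 in WT (−2.79 ± 0.50), Ccdc3 17.5 and 16.0 in vector and 59.8 and 189 in WT, and the teneurin Odz4 64.2 and 26.6 in vector and 160.4 and 429 in WT. Fam115c was the remaining gene among the 5 lower ones with the lowest p over 12 libraries, with 247 and 218 in vector and 810.4 and 861 in WT (−1.84 ± 0.19, adjusted p = 0.00329).

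**Figure D4:**
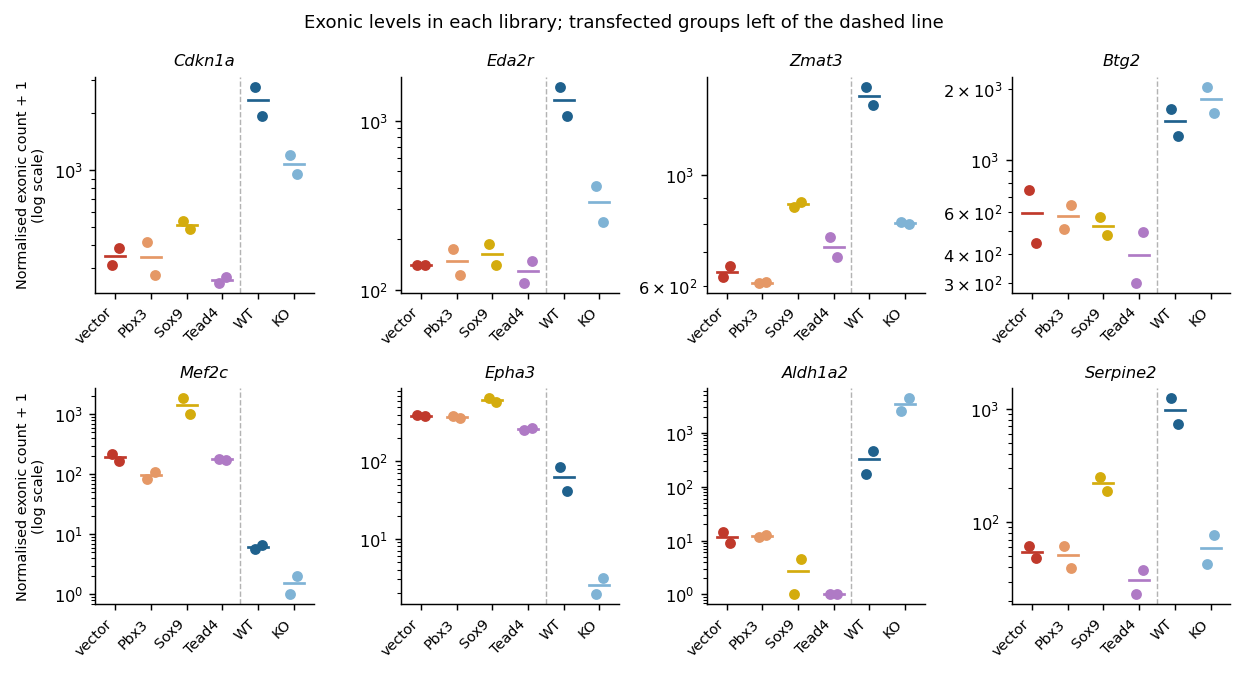
Exonic level of 8 genes in each of the 12 libraries, as normalised counts plus 1 on log scales, with bars at group means; the transfected groups (vector, Pbx3, Sox9, Tead4) stand left of the dashed line and the untransfected WT and KO cells right of it. Cdkn1a, Eda2r, Btg2 and Aldh1a2 are lower, and Mef2c and Epha3 higher, in all 8 transfected libraries; Zmat3 and Serpine2 in KO cells overlap the transfected levels.

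The 4 genes that the study deleted or transfected were not called in vector cells. Dicer1 gave 1775 and 2219.8 in vector and 1416 and 1335 in untransfected WT (0.53 ± 0.18). Pbx3 gave 575 and 497 in vector and 501 and 510.2 in WT (0.08 ± 0.19), Sox9 309 and 128 in vector and 63.6 and 384 in WT (0.34 ± 0.87), and Tead4 87.5 and 93.0 in vector and 65.5 and 25.5 in WT (1.12 ± 0.56). Pbx3 and Sox9 levels overlapped between the groups.

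In intronic reads the 13 genes that limma called on 4 libraries could be read one by one. AK017010, a transcript named in the tables by its sequence record alone, rose to 853 and 1026 in vector, against 33.9 and 35.3 in untransfected WT (4.72 ± 0.22, limma adjusted p = 0.00545). All factor cells held 623 to 921 and the KO cells 33.1 and 39.6, so transfected libraries stood apart from untransfected ones with narrow spread in each class. In intronic reads all 8 transfected libraries lay above all 4 others for 5.11% of genes and below for 4.61%. Cdh5, the cadherin of endothelial junctions, rose to 147 and 179.6 in vector, against 2.91 and 2.08 in WT (5.56 ± 0.51, limma adjusted p = 0.0484). These are 136 intronic reads in vector and 5 in WT. Cdh5 was at 92.9 to 194 in the factor cells and 2.01 and 2.03 in KO, yet its exonic count was 0 in all 12 libraries. The summed exonic level of endothelial markers was 106 to 165 in vector and 165 to 196 in WT. Lphn3, an adhesion receptor, rose to 359 and 242 in vector, against 29.1 and 34.2 in WT (3.18 ± 0.31). AB056442 and C730048C13Rik rose in the same libraries, AB056442 to 1153 and 1116 in vector, against 274 and 346 in WT, and C730048C13Rik to 1119 and 1083 in vector, against 311 and 349.7 in WT. Their values are similar in every library, and reads shared between them cannot be told apart here.

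The 7 intronic genes that fell were Cdkn1a, Eda2r, Gria3, Jazf1, Samd12, Gpr176 and Eya2. Gria3, an AMPA glutamate receptor subunit, fell to 365 and 403 in vector, against 2491 and 2345 in WT (−2.65 ± 0.17, limma adjusted p = 0.0166), and its exonic level was 105 and 79.8 in vector and 623 and 515 in WT. Jazf1, a zinc finger protein, fell to 69.3 and 62.6 in vector, against 469 and 471 in WT (−2.82 ± 0.21, limma adjusted p = 0.0313). Eya2, a transcriptional coactivator, fell to 510.3 and 498 in vector, against 1451 and 1578 in WT (−1.58 ± 0.16). Of these 3, Jazf1 and Eya2 were lower in all 8 transfected libraries than in all 4 untransfected ones, and Gria3 was not, with 219.8 and 202 in KO cells. Gpr176, an orphan receptor, fell to 329.7 and 381 in vector, against 1276 and 1417 in WT, and Samd12 to 56.7 and 65.3 in vector, against 293 and 321 in WT.

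Across 9347 genes measured in both kinds of reads, exonic and intronic differences went together, with a Pearson r of 0.788 and a Spearman rho of 0.740 over genes, which share the 4 libraries and are not independent replicates. The difference between them was tested per gene on the same libraries, with each exonic library joined to the intronic library of its group that deviated the same way. limma called 1 gene (0.0107%), Rps27l, a p53 target outside the list above that encodes a ribosomal protein paralog, at 2.37 ± 0.16 (limma adjusted p = 0.0333), and without either WT library the count was 0. Its intronic level was 96.6 and 155 in vector and 1035 and 724 in WT, while its exonic level was 2827 and 3783 in vector and 5237 and 3778 in WT with overlapping libraries. Intronic Rps27l was at 90.2 to 167 in the factor cells and 320.2 and 454 in KO cells. The 12-library fit called 116 genes whose exonic difference was the higher one (1.24%) and 39 whose intronic difference was (0.417%).

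S100a6, a calcium-binding protein, was of the first kind, with intronic levels of 718 and 487 in vector and 1868 and 2072 in WT and exonic levels of 28706 and 18601 in vector and 18941 and 21311 in WT. Hmga2 was higher in both kinds of reads, by 2.68 in exonic and 1.26 in intronic reads. Of the second kind was Atp5o, a subunit of mitochondrial ATP synthase, with intronic levels of 987 and 1159 in vector and 367 and 351 in WT and exonic levels of 4351 and 4586 in vector and 3978 and 3818 in WT. Its intronic level was 754 to 1259 in the factor cells and 416 and 431 in KO cells. Rps15a, a ribosomal protein, had intronic levels of 1991 and 2547 in vector and 889 and 535 in WT and exonic levels of 5686 and 6553 in vector and 4896 and 4532 in WT. Adamts3, a procollagen protease, was lower in exonic reads, with 77.8 and 138 in vector and 482 and 343 in WT, beside intronic levels of 1010.2 and 1415 in vector and 1336 and 833 in WT.

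**Figure D5:**
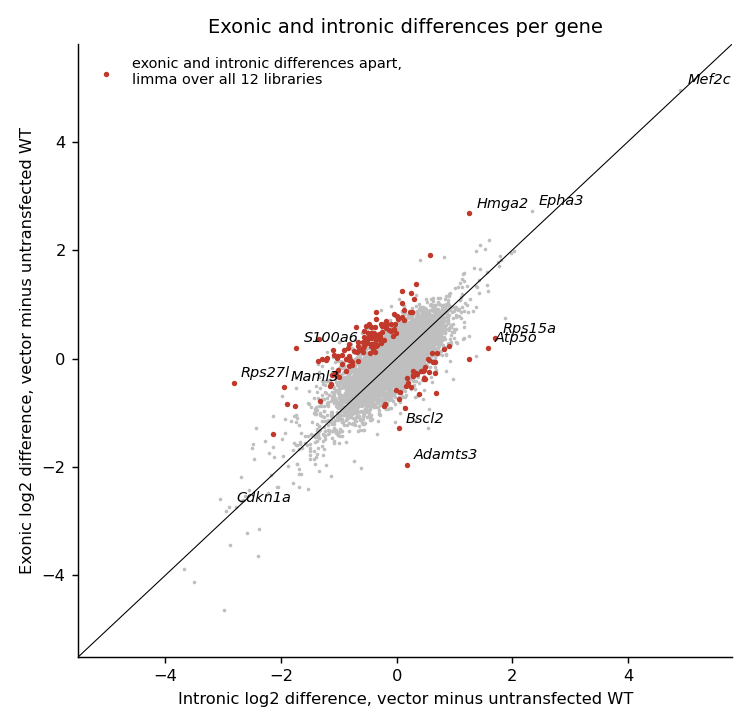
log2 difference of each of 9347 genes, vector minus untransfected WT, in exonic reads (vertical axis) against intronic reads (horizontal axis); the line marks equal differences. Red points are the 116 and 39 genes whose differences were apart in limma over 12 libraries; Rps27l and S100a6 lie left of the line and Atp5o and Rps15a right of it.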

How the data were processed

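Total RNA depleted of ribosomal RNA gave strand-specific single-end libraries, per the labels' protocols. The submitters' processing notes name Bowtie2, mm9 and DESeq 1.10.1; how reads were assigned to exons or introns is not given in the sources used here. The signal columns are read counts that the authors divided by size factors and averaged per group, per the file headers and the submitters' processing notes; 0 columns used lacked a group. The labels list 1 sample per group, but each deposited mean was the sum of whole multiples of 2 steps. Reads of 2 libraries were recovered for 100% of 23227 exonic and 23231 intronic genes (tolerance 1e-09), with equal vector reads from the 3 tables that hold them; the recovery was tested on simulated data.

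The size rule rescaled the deposited vector means by 2.127 (exonic, 7390 genes with both means of at least 200) and 2.227 (intronic, 4895 genes) and took log2 of the ratio with a pseudocount of 1, for genes with a mean of at least 50. limma 3.58.1 in R 4.3.3 was run on log2(normalised count + 1) after median-of-ratios scaling, at the same minimum. The deposited unit is a group mean and limma was fixed as the test; limma-voom on the recovered reads was an alternative, and no other count model was run. The members, the 50 gene lists, the named genes (the 12 largest exonic and 6 largest intronic differences per direction without overlap, called genes, and up to 8 per list described) and the alternatives were chosen with earlier results of these data known. As few genes passed the 4-library test, called genes were named from the 12-library fit as well, a choice made after the values were seen, as was naming every p53 list member and all 13 intronic calls. Exonic and intronic depth ranged from 6130267 to 23501655 and from 3156973 to 10205497 reads over 12 libraries, and counting intervals cover counting error only.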

Additional observations from a re-analysis of the deposited data

How the results depend on the processing

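The count of genes at least 2-fold apart was 240 in exonic and 248 in intronic reads at a minimum mean of 200, and 2076 and 2667 with no minimum; under the other scalings, a pseudocount of 5 or the vector means of the other tables it stayed within 1.5 times. The exonic limma count of 0 was 265 over all 12 libraries and 2811 with a term for library order, and 0 under limma-voom, the other scalings, filters and pseudocount. Leaving out 1 library gave 3 (without vector library 2), 121 (without vector library 1), 155 (without WT library 2) and 511 exonic calls (without WT library 1), the lone library being assumed to vary like the other group. The intronic limma count of 13 was 395 over 12 libraries, 1910 with the order term, 4 under limma-voom, 5 at a minimum mean of 1, 2 at a minimum of 200 and 2 when scaled by total reads. Leaving out 1 library gave 0 without either vector library, 104 without WT library 2 and 237 without WT library 1. The count for exonic minus intronic was 1, and 155 over 12 libraries, 262 at a minimum of 200, 7 with a pseudocount of 5, 0 without either WT library, 533 without vector library 1 and 225 without vector library 2. The cause was not tested. The order term comes from genes along which the 2 libraries of the other groups differ, a hint from the data and not the design. Such genes include cholesterol synthesis genes, whose median differed by 1.34 between the vector libraries and by −1.28 between the WT libraries. No paired analysis was possible because the labels give no replicate numbers. No called gene reversed under these alternatives. The exonic median of the p53 list ranged from −0.97 to −0.74 over the alternatives, that of matrix proteins from −0.89 to −0.54, that of basement membrane genes from −1.10 to −0.35 and that of interferon genes from 0.16 to 0.42. With 2 libraries per group, a gene that did not pass is not shown to be unchanged.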

Other observations

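Of 8 measured non-coding RNAs of the nucleus, 7 were above 0 in exonic reads, with a median of 0.58 that ranged from 0.17 to 0.99 over the alternatives. The median of the list differed by −0.83 between the vector libraries (library 1 minus 2) and by 0.76 between the WT libraries, more than between the groups. Both vector libraries lay above both WT libraries for 2 of the 8 (25.6% of all genes), and 1 was at least 2-fold higher (0.659% of all genes). The 12-library fit called 1 higher (1.37% of all genes), Snhg3, a host gene of small nucleolar RNAs. It gave 820.4 and 1268 normalised counts in vector and 454 and 379 in untransfected WT (1.30 ± 0.26, limma adjusted p = 0.0479 over 12 libraries). Gas5 and Snhg1, of the same kind, differed between the 2 libraries of each group by more than the groups did, with 4327 and 7898 for Gas5 in vector and 4925 and 2466 in WT. Lysosome and autophagy genes lay mostly lower, with 22 of 25 below 0 in exonic reads and a median of −0.36. Among them 0 were 2-fold apart (4.38% of all genes). Neither fit called any of them, and the 12-library fit called 1.12% of all genes lower. Both vector libraries lay below both WT libraries for 15 of the 25 (24.5% of all genes). All 8 transfected libraries lay below all 4 untransfected ones for 4 (5.05% of all genes) and above for 1 (5.49%).

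Replication and mitosis genes had a median of 0.13 over 34 measured members, with 22 above 0 and 12 below. The vector libraries both lay above the WT libraries for 6 (25.6% of all genes) and below for 8 (24.5%). All 8 transfected libraries lay above all 4 untransfected ones for 0 (5.49%) and below for 3 (5.05%). Oxidative phosphorylation genes had a median of −0.06 over 34, with 25 below 0 and 9 above and 0 at least 2-fold apart. In 16 of these 34 both vector libraries lay below both WT libraries (24.5% of all genes), in 6 all 8 transfected libraries lay below all 4 untransfected ones (5.05%), and the 12-library fit called 1 lower (1.12%). TEAD-YAP target genes had a median of 0.00 over 26 members. Hist4h4, a histone gene, gave 657 and 808 in vector and 274 and 243 in untransfected WT (1.49 ± 0.21, limma adjusted p = 0.0351 over 12 libraries), and was at 574 to 963 in the factor cells.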
